A study of Homo sapiens with 8 samples.

Results

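SQSTM1, NBR1, MAP1LC3B, GABARAP, GABARAPL1, GABARAPL2, WIPI1, ULK1, ATG5 and ATG12, 10 genes of selective autophagy, were followed in 293T cells given EerI, 5-NA or CBU-028. Their probe sets were taken by name, as all those whose platform annotation gives 1 of these symbols. The member genes themselves were chosen with earlier results of these data known. They were 10 of 19775 measured genes and 25 of 54675 probe sets, of which 24 had a single gene symbol and 1 was shared by GABARAPL1 and GABARAPL3. SQSTM1 had 5 probe sets, NBR1 4, GABARAPL1, ATG5 and ATG12 3 each, MAP1LC3B and WIPI1 2 each, and GABARAP, GABARAPL2 and ULK1 1 each.

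293T cells derive from human embryonic kidney and express the large T antigen of SV40. EerI (Eeyarestatin I) is an inhibitor of ER-associated degradation that acts on the ATPase p97, and it can be divided into a nitrofuran-containing part and an aromatic part. 5-NA (5-nitrofuryl-acrolein) corresponds to the nitrofuran-containing part alone, and CBU-028, from the same study, joins that part to a different benzene-containing group. Each compound was given at 10 µM for 10 h, the control cells received none of them, and every group had 2 Affymetrix arrays of the same parental line. For the arrays, the sources do not say if control cells had solvent. The study speaks of duplicate treatments and of biological replicates, while the labels are silent on separate cultures. The p-values rest on the spread within the pairs of arrays, shared over all groups and drawn towards that of all probe sets. They measure no spread beyond these samples.

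Selective autophagy encloses a marked cargo in a double membrane and delivers it to the lysosome. Cargo receptors such as SQSTM1 (p62) and NBR1 bind ubiquitin on the cargo with one domain and ATG8 proteins on the growing membrane with another. The ATG8 proteins, the LC3 and GABARAP families, are fixed to lipid by a ubiquitin-like conjugation system in which ATG12 is joined to ATG5, downstream of the kinase ULK1 and of the lipid-binding WIPI proteins. Receptors and lipid-bound ATG8 proteins are themselves degraded with their cargo, so mRNA and protein of these genes can move apart, and arrays measure the mRNA alone.

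The promoter windows below are shown because MAP1LC3B and GABARAPL1 were the members with a match to a searched motif and SQSTM1, with none, had the largest difference from control among the members, with 5-NA. They hold the 250 bases before an annotated start in RefSeq on build GRCh38.p14, plus strand, 5′ to 3′, with matches in capitals. SQSTM1 has 3 annotated starts and the third, the farthest downstream of them, is printed.
MAP1LC3B chr16:87392086-87392335: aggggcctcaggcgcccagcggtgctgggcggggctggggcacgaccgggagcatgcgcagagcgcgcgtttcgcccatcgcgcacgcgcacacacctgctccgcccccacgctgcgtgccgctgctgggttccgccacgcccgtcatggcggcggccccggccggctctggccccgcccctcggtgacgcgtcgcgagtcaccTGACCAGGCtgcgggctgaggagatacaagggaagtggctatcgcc
GABARAPL1 chr12:10212627-10212876: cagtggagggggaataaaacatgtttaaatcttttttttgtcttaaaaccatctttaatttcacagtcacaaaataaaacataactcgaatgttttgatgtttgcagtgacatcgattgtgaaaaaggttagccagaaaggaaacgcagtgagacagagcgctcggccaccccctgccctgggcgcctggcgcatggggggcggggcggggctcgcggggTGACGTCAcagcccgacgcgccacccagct
SQSTM1 chr5:179820655-179820904: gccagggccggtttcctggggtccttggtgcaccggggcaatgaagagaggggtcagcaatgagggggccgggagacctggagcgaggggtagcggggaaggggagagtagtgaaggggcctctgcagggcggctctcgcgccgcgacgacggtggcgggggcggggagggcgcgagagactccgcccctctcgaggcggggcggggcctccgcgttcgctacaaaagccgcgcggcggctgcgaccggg

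All 10 members had a promoter in the table, 14 windows in all. Both strands were searched for the antioxidant response element TGACNNNGC, bound by NRF2 with small MAF proteins, the amino acid response element TGATGNAA, bound by ATF4 dimers, the E-box CACGTG, read by TFEB and TFE3 among others, and the cAMP response element TGACGTCA. The last was added after the sequences had been seen, and no 2 matches overlapped. MAP1LC3B held TGACCAGGC, bases 46 to 38 before the start, and was the 1 member with the antioxidant element, which 13.2% of all 27303 genes of the table and 10.9% of all 35114 windows hold. GABARAPL1 held the cAMP response element, bases 30 to 23 before the start, against 2.03% of all genes and 1.65% of windows. The amino acid response element (3.89% of all genes, 3.14% of windows) and the E-box (7.73% and 6.35%) were in none of the 14 windows. A match is a description of the letters and no evidence of binding, and 250 bases leave out more distant elements.

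On these arrays no member was called with EerI, 4 were called higher with CBU-028 and 5 with 5-NA. None was called lower against control or in a comparison of compounds. The calls are limma's at a Benjamini-Hochberg adjusted p under 0.05 over all probe sets of a comparison, each gene being read by the brightest of its single-symbol probe sets. Equal unadjusted p-values can thus differ in call between compounds. With EerI the MAP1LC3B probe set 208786_s_at had a limma p of 0.00507, adjusted 0.209. With 5-NA the NBR1 probe set 1568857_a_at had a limma p of 0.00698, adjusted 0.047, and was called. The background of higher calls over all genes was 0.506% with EerI, 5.49% with CBU-028 and 7.87% with 5-NA, beside 0%, 40% and 50% of the members. Since the members were chosen with earlier results known, these shares are a description and no test. For lower calls it was 0.263%, 7.1% and 10.9%. The median log2 difference of the 10 members from control was 0.11 with EerI, 0.21 with CBU-028 and 0.27 with 5-NA, while that of all genes was -0.0016, -0.0099 and -0.03. For EerI, 2 of the 10 genes, SQSTM1 and ATG12, had an unadjusted limma p under 0.05. The share of all genes at an unadjusted p was not counted, so unadjusted counts here and below have no background beside them. With EerI an analysis of variance contrast without moderation gave 2 genes, SQSTM1 and MAP1LC3B, at an unadjusted p under 0.05 and 0 after adjustment. At an unadjusted p under 0.05 that analysis also put GABARAPL2 below control with CBU-028, and GABARAP and GABARAPL2 below control with 5-NA, and adjusted it kept 1 of the 4 calls with CBU-028 and 3 of the 5 with 5-NA. In a lysate of a whole culture, fewer cells of a type and less RNA per cell cannot be told apart, and this holds for all values below.

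**Figure D1:**
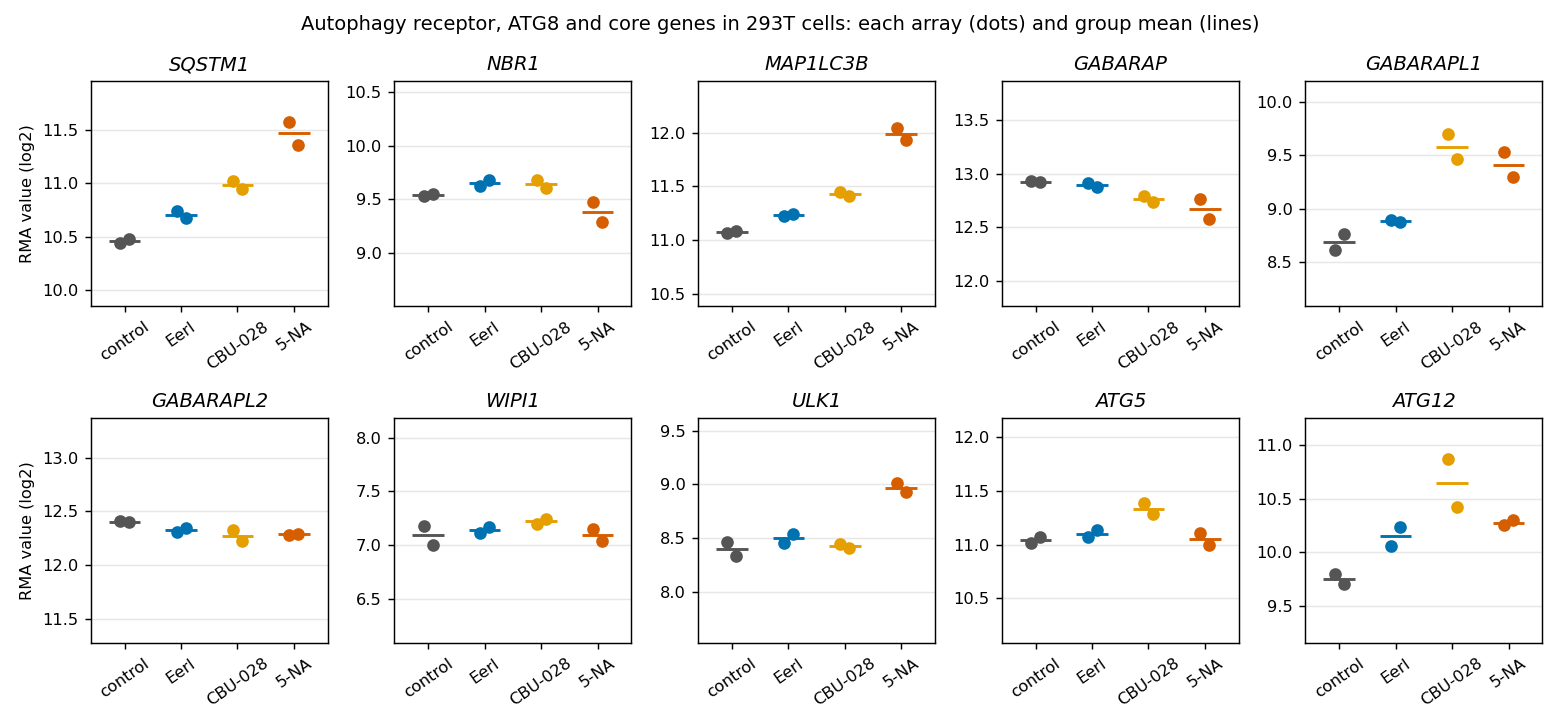
Log2 value of each of the 10 genes on the 8 arrays, by its brightest probe set; each point is 1 array and each line a group mean, with 2 arrays for each of control, EerI, CBU-028 and 5-NA. SQSTM1 and MAP1LC3B climb from control through EerI and CBU-028 to 5-NA without overlap. GABARAPL1 and ATG12 have their highest group mean with CBU-028, and for GABARAPL1 the CBU-028 and 5-NA arrays overlap.

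The arrays of a compound lay wholly above or wholly below those of control for 7 of the 10 members with EerI, 9 with CBU-028 and 8 with 5-NA. Over all genes this was so for 51.5%, 55.2% and 62.5%, so with 2 arrays a group a lack of overlap alone says little. An exact permutation test of 2 against 2 arrays cannot give a p below 0.333.

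The receptor SQSTM1, which gathers ubiquitinated proteins into condensates and also binds KEAP1, had log2 values of 10.44 and 10.48 on the control arrays, 10.74 and 10.67 with EerI, 11.02 and 10.95 with CBU-028, and 11.57 and 11.36 with 5-NA. The 4 pairs of arrays did not overlap and stood in that order. Against control the log2 difference was 0.25 ± 0.09 (SE, n = 2 per group) with EerI, adjusted p = 0.396, 0.52 ± 0.09 with CBU-028, adjusted p = 0.00837, and 1.01 ± 0.09 with 5-NA, adjusted p = 0.000347. The 5-NA difference corresponds to 2.01-fold, and SQSTM1 was the only member of the 10 past 2-fold by the probe set that stands for it. The CBU-028 call was lost without control replicate 1 (adjusted p = 0.0803) or control replicate 2 (adjusted p = 0.0608), and in the adjusted analysis without moderation (0.0588).

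The 5 probe sets of SQSTM1 did not move alike. With 5-NA, 213112_s_at (log2 difference 0.38, adjusted p = 0.0136) and 244804_at (0.55, adjusted p = 0.00985) also rose, 239004_at was at -0.0086, and 242568_s_at fell by 0.63 on the log2 scale, adjusted p = 0.034. The last is the dimmest, with a mean log2 value of 5.63 over all arrays, and its 2 control arrays differed by more than those of any other SQSTM1 probe set, 6.11 and 5.82. Read as the mean of its 5 probe sets, SQSTM1 was 0.06 above control with EerI, 0.07 with CBU-028, adjusted p = 0.522, and 0.26 with 5-NA, adjusted p = 0.0166. So the rise with 5-NA was called by either reading at unequal size, and that with CBU-028 only by the brightest probe set.

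NBR1, the related receptor that works with SQSTM1 in condensing ubiquitinated cargo, was at 9.53 and 9.55 in control, 9.62 and 9.68 with EerI, 9.68 and 9.60 with CBU-028, and 9.47 and 9.29 with 5-NA. The EerI and CBU-028 arrays lay above control and overlapped each other, and the 5-NA arrays lay below. None of the log2 differences passed the test: 0.11 ± 0.09 with EerI, 0.10 ± 0.09 with CBU-028 and -0.16 ± 0.09 with 5-NA, the last with a 95% interval from -0.36 to 0.04. The dim probe set 1568857_a_at, at a mean of 5.65, rose with CBU-028 (0.34, adjusted p = 0.0313) and 5-NA (0.28, adjusted p = 0.047), while 201383_s_at and 1568856_at were not called.

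Among the ATG8 genes, MAP1LC3B and GABARAPL1 rose while GABARAP and GABARAPL2 were not called in either direction. MAP1LC3B encodes LC3B, the protein most used to mark autophagosomes. Its values were 11.07 and 11.09 in control, 11.23 and 11.24 with EerI, 11.45 and 11.41 with CBU-028, and 12.05 and 11.94 with 5-NA. As for SQSTM1, the pairs followed each other without overlap. The log2 difference from control was 0.16 ± 0.08 with EerI, adjusted p = 0.58, 0.35 ± 0.08 with CBU-028, adjusted p = 0.0252, and 0.91 ± 0.08 with 5-NA, adjusted p = 0.000286. Its second probe set, 208786_s_at, gave 0.36, 0.53 and 1.09, with calls for CBU-028 (adjusted p = 0.0117) and 5-NA (adjusted p = 0.000349). The CBU-028 call by the first probe set was lost without either control array (adjusted p = 0.138 and 0.175), either EerI array (0.0551 each) or CBU-028 replicate 1 (0.0635), and in a fit of both groups alone (0.0826).

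GABARAPL1, a GABARAP-family ATG8 known to respond to stress at the transcript level, was at 8.62 and 8.76 in control, 8.89 and 8.88 with EerI, 9.70 and 9.47 with CBU-028, and 9.53 and 9.30 with 5-NA. The CBU-028 and 5-NA arrays overlapped each other and lay above all EerI and control arrays. The log2 difference was 0.19 ± 0.11 with EerI, adjusted p = 0.662, 0.89 ± 0.11 with CBU-028, adjusted p = 0.0018, and 0.72 ± 0.11 with 5-NA, adjusted p = 0.00321. Without moderation the adjusted p was 0.0502 with CBU-028 and 0.0528 with 5-NA. The probe set 208869_s_at gave 1.09 with CBU-028 and 1.04 with 5-NA, both called, and 0.39 with EerI. The probe set shared with GABARAPL3, 211458_s_at, gave 0.49 with EerI, adjusted p = 0.0594, 1.32 with CBU-028 and 1.30 with 5-NA, and the signal of both genes cannot be told apart there. The 2 probe sets of its own thus placed GABARAPL1 higher with both CBU-028 and 5-NA, by 1.65-fold to 2.12-fold.

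GABARAP and GABARAPL2 (GATE-16), which also act in fusion and in transport, were bright on every array. GABARAP was at 12.93 and 12.92 in control, 12.91 and 12.88 with EerI, 12.79 and 12.73 with CBU-028, and 12.77 and 12.58 with 5-NA. All compound arrays lay below control, and with 5-NA the log2 difference was -0.25 ± 0.09, 95% interval -0.45 to -0.05, adjusted p = 0.0897. That difference passed with a floor at a log2 value of 7 (adjusted p = 0.0362), with a trend in the prior variance (0.0126) and when each gene was read as the mean of its probe sets (0.0417). GABARAPL2 stayed within 12.22 and 12.41 on all 8 arrays, with log2 differences of -0.08, -0.13 and -0.12, none called.

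Of the factors upstream of conjugation, ULK1 was called higher with 5-NA and WIPI1 with no compound. ULK1, the kinase that starts autophagosome formation under the control of MTORC1 and AMPK, was at 8.46 and 8.33 in control, 8.46 and 8.54 with EerI, 8.44 and 8.40 with CBU-028, and 9.01 and 8.92 with 5-NA. The 5-NA arrays stood apart from the other 6, which lay between 8.33 and 8.54. The log2 difference was 0.58 ± 0.08 with 5-NA, adjusted p = 0.00266, against 0.11 with EerI and 0.03 with CBU-028, whose 95% interval ran from -0.16 to 0.22. WIPI1, which reads the lipid PI3P on the nascent membrane, ranged from 7.004 to 7.25 over all 8 arrays. Its log2 differences were 0.05, 0.13 and 0.0031, each with an SE of 0.09. The second probe set of WIPI1, 203827_at, was at 0.05, 0.28 and -0.0073, none called. Its 95% interval with CBU-028 ran from 0.02 to 0.54. As the mean of its probe sets WIPI1 was 0.20 above control with CBU-028, adjusted p = 0.0777.

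The conjugation partners ATG5 and ATG12 differed from each other. ATG12, the ubiquitin-like protein, was at 9.80 and 9.70 in control, 10.06 and 10.24 with EerI, 10.87 and 10.42 with CBU-028, and 10.26 and 10.30 with 5-NA. Every treated array was above control, and the CBU-028 arrays were the highest and also the most apart, with an SD of 0.32. The log2 difference was 0.40 ± 0.14 with EerI, adjusted p = 0.352, 0.90 ± 0.14 with CBU-028, adjusted p = 0.00473, and 0.53 ± 0.14 with 5-NA, adjusted p = 0.0323. The 5-NA call was lost when any 1 array of control or 5-NA was left out, with adjusted p from 0.111 to 0.172. Without moderation the adjusted p was 0.0885 with CBU-028 and 0.18 with 5-NA. A further probe set, 213930_at, rose with CBU-028 (0.49, adjusted p = 0.0139) and 5-NA (0.59, adjusted p = 0.00383), and 204833_at was called with neither (0.33 and 0.22).

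ATG5, to which ATG12 is joined, was at 11.02 and 11.07 in control, 11.07 and 11.14 with EerI, 11.39 and 11.28 with CBU-028, and 11.11 and 11.00 with 5-NA. Only the CBU-028 arrays lay clear of control. Their log2 difference of 0.29 ± 0.08 missed the threshold, adjusted p = 0.0627, and passed it when probe sets with a mean under 5 (adjusted p = 0.0497) or under 7 (0.0233) were left out, after renewed quantile normalization (0.0474), with a trend in the prior variance (0.0132) and without CBU-028 replicate 2 (0.0437). As the mean of its probe sets ATG5 was 0.17 above control with CBU-028, adjusted p = 0.209. Of its other probe sets with CBU-028, 210639_s_at was at 0.35 and 202512_s_at at -0.13, neither called. With 5-NA the difference at the brightest probe set was 0.01 ± 0.08. With that compound 202512_s_at fell by 0.39, adjusted p = 0.0125, so the probe sets of ATG5 disagreed.

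**Figure D2:**
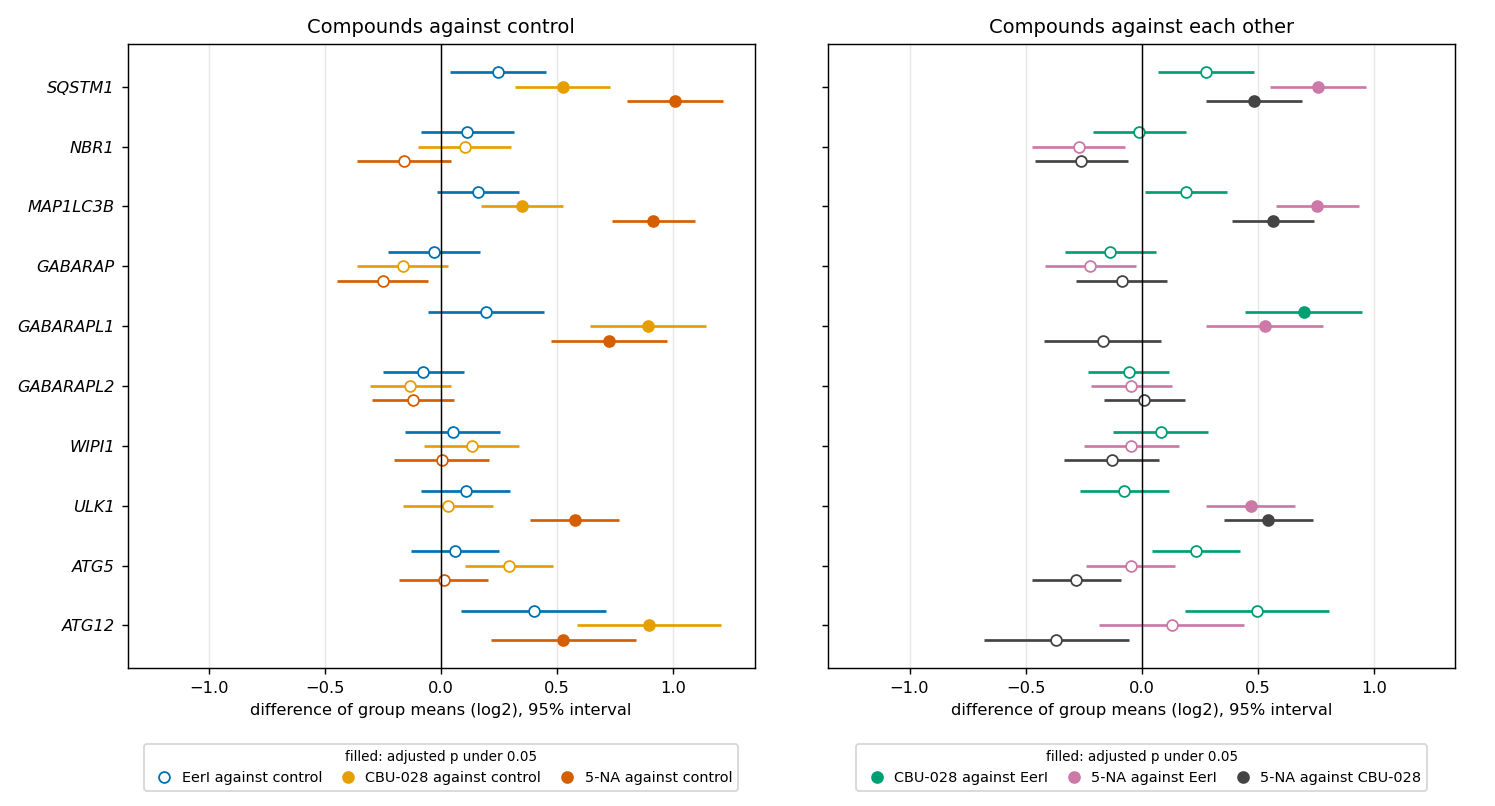
Difference of group means on the log2 scale for each gene, with 95% intervals, for the compounds against control (left) and against each other (right); filled points have an adjusted p under 0.05. The filled points all lie above 0, and GABARAPL1 and ATG12 are higher with CBU-028 than with 5-NA without a call of that difference.

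The compounds were also tested against each other at the same dose and time, 3 pairs beside the 3 comparisons with control, 6 in all, with p-values adjusted within each comparison. The 3 comparisons with control share the control arrays and are not independent of each other. Higher calls over all genes made up 1.6% for CBU-028 against EerI, 7.93% for 5-NA against EerI and 6.47% for 5-NA against CBU-028.

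CBU-028 against EerI gave 1 call among the 10 members. GABARAPL1 was higher with CBU-028 by 0.70 ± 0.11 on the log2 scale, adjusted p = 0.0176, and this call was lost without EerI replicate 1 (adjusted p = 0.153) or EerI replicate 2 (0.136), in a fit of both groups alone (0.097) and without moderation (0.131). ATG12 was 0.50 ± 0.14 higher without passing, adjusted p = 0.0966. Its difference was 0.72 without CBU-028 replicate 2, which passed (adjusted p = 0.0146), and 0.27 without CBU-028 replicate 1, and with a trend in the prior variance it passed at 0.50 (adjusted p = 0.037). SQSTM1 differed by 0.28, with a 95% interval of 0.07 to 0.48, and MAP1LC3B by 0.19, interval 0.01 to 0.37, neither called.

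5-NA, the nitrofuran-containing part without the aromatic part of EerI, gave 4 higher calls against EerI. SQSTM1 was higher by 0.76 ± 0.09 (adjusted p = 0.00124), MAP1LC3B by 0.76 ± 0.08 (adjusted p = 0.000708), GABARAPL1 by 0.53 ± 0.11 (adjusted p = 0.0139) and ULK1 by 0.47 ± 0.08 (adjusted p = 0.00712). The GABARAPL1 call was lost without EerI replicate 1 or 2 or 5-NA replicate 1 (adjusted p = 0.0864, 0.0869 and 0.0917), the ULK1 call without EerI replicate 1 (0.0749), and without that array the comparison had 2 calls in place of 4. Without moderation the adjusted p of GABARAPL1 was 0.1. As the mean of its 5 probe sets SQSTM1 was higher by 0.20, adjusted p = 0.0465. NBR1 was at -0.27, interval -0.47 to -0.07, adjusted p = 0.0767, and passed as lower with 5-NA with a floor at a log2 value of 7 (0.0313) or a trend in the prior variance (0.039). GABARAP was at -0.22, interval -0.42 to -0.02, adjusted p = 0.138, and passed with that trend (0.0263). ATG12 differed by 0.13, with an interval from -0.18 to 0.44, although its probe set 213930_at was called higher (0.42, adjusted p = 0.0183), and WIPI1, ATG5 and GABARAPL2 by -0.05, -0.05 and -0.04.

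Against CBU-028, 5-NA gave 3 higher calls. SQSTM1 was higher by 0.48 ± 0.09 (adjusted p = 0.0116), MAP1LC3B by 0.56 ± 0.08 (adjusted p = 0.00331) and ULK1 by 0.55 ± 0.08 (adjusted p = 0.00505). The SQSTM1 call was lost when the gene was read as the mean of its 5 probe sets (0.19, adjusted p = 0.072), in a fit of both groups alone (0.0698), without moderation (0.0643) and without 5-NA replicate 1 (0.0669). The opposite order was seen, without a call, for GABARAPL1, -0.17 with an interval from -0.42 to 0.08, for ATG12, -0.37 with an interval from -0.68 to -0.06, and for ATG5, -0.28 with an interval from -0.47 to -0.09 and an adjusted p of 0.0676. The ATG5 difference passed in the fit on probe sets with a mean of at least 7 (adjusted p = 0.0245), with a trend in the prior variance (0.0147) and as the mean of its probe sets (0.0406). The ATG12 difference was -0.59 without CBU-028 replicate 2 and -0.14 without CBU-028 replicate 1. Its other probe sets were at 0.11 (213930_at) and -0.11 (204833_at), and 208869_s_at of GABARAPL1 was at -0.04, none called. NBR1 was at -0.26, interval -0.46 to -0.06, adjusted p = 0.103, and passed with the floor at 7 (0.0428).

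Over the 24 probe sets of a single symbol, 0 were called with EerI, 8 were higher with CBU-028, and 11 were higher and 2 lower with 5-NA. Higher calls over all probe sets were 0.357%, 4.4% and 7.32%, and lower calls with 5-NA 7.9%. Both of the lower ones, of SQSTM1 and ATG5, belong to genes whose brightest probe set was not lower.

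**Figure D3:**
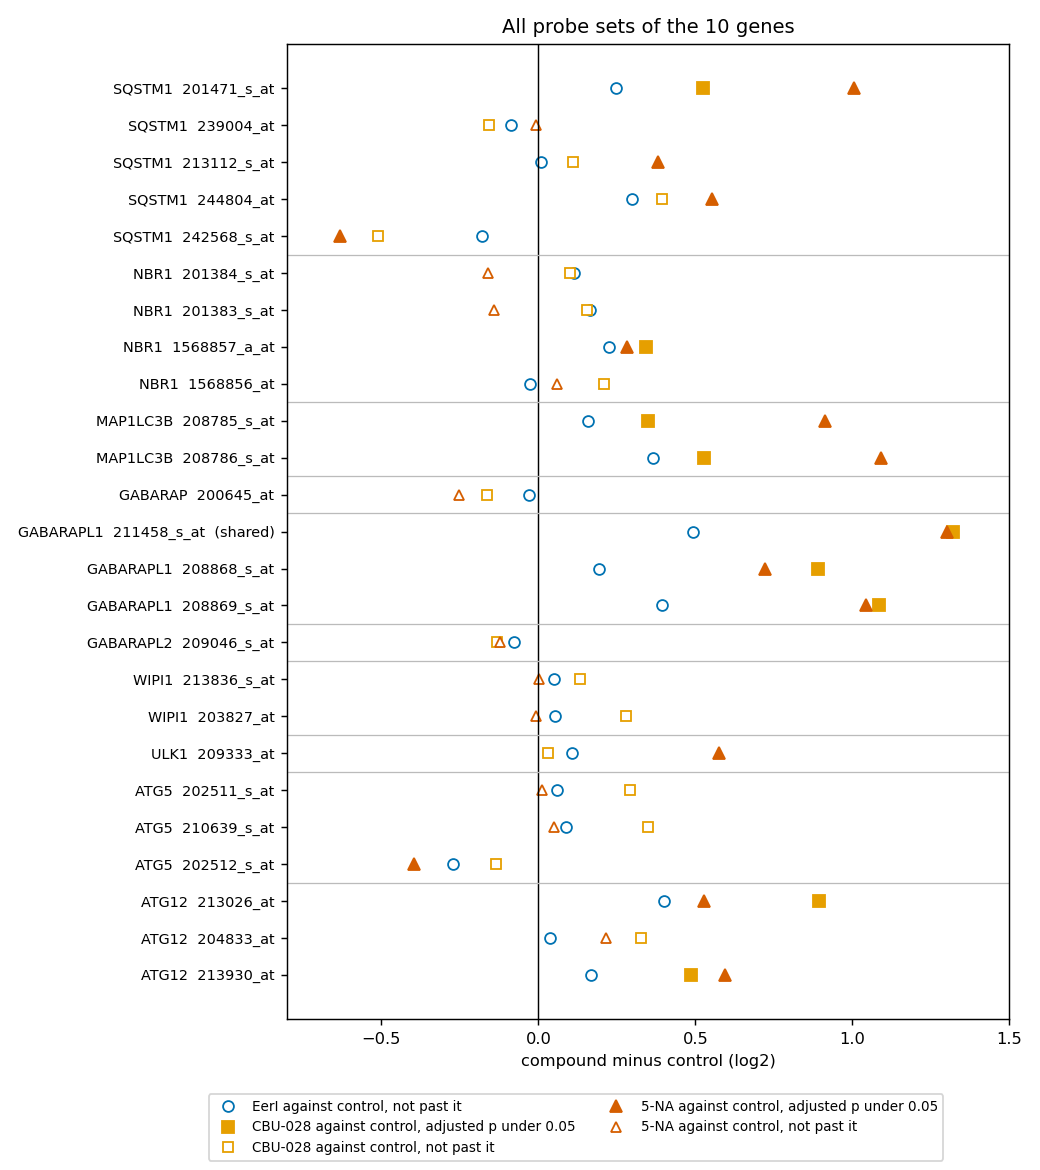
Log2 difference from control of all 25 probe sets of the 10 genes with EerI (circles), CBU-028 (squares) and 5-NA (triangles); filled symbols have an adjusted p under 0.05. The probe sets of MAP1LC3B and GABARAPL1 lie together on the right, while those of SQSTM1 with 5-NA run from -0.63 to 1.01.

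The 74 other autophagy genes of 10 lists were all measured, and those that were called went in both directions. Each was read by its brightest probe set alone. Of the 25 calls against control, 16 were of genes with several probe sets, of which 9 had a further probe set called the same way and 7 had none. With EerI 0 of the 74 were called by limma, with a median log2 difference of 0.01. By its unadjusted p 9 of them were under 0.05, a count with no share of all genes beside it. With CBU-028 5 were higher (6.76%) and 3 lower (4.05%), and with 5-NA 11 were higher (14.9%) and 6 lower (8.11%), with a median of 0.08 in both. Beside the backgrounds above, the CBU-028 shares were near or under those of all genes, and the 5-NA share of higher calls was above and that of lower calls under them.

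**Figure D4:**
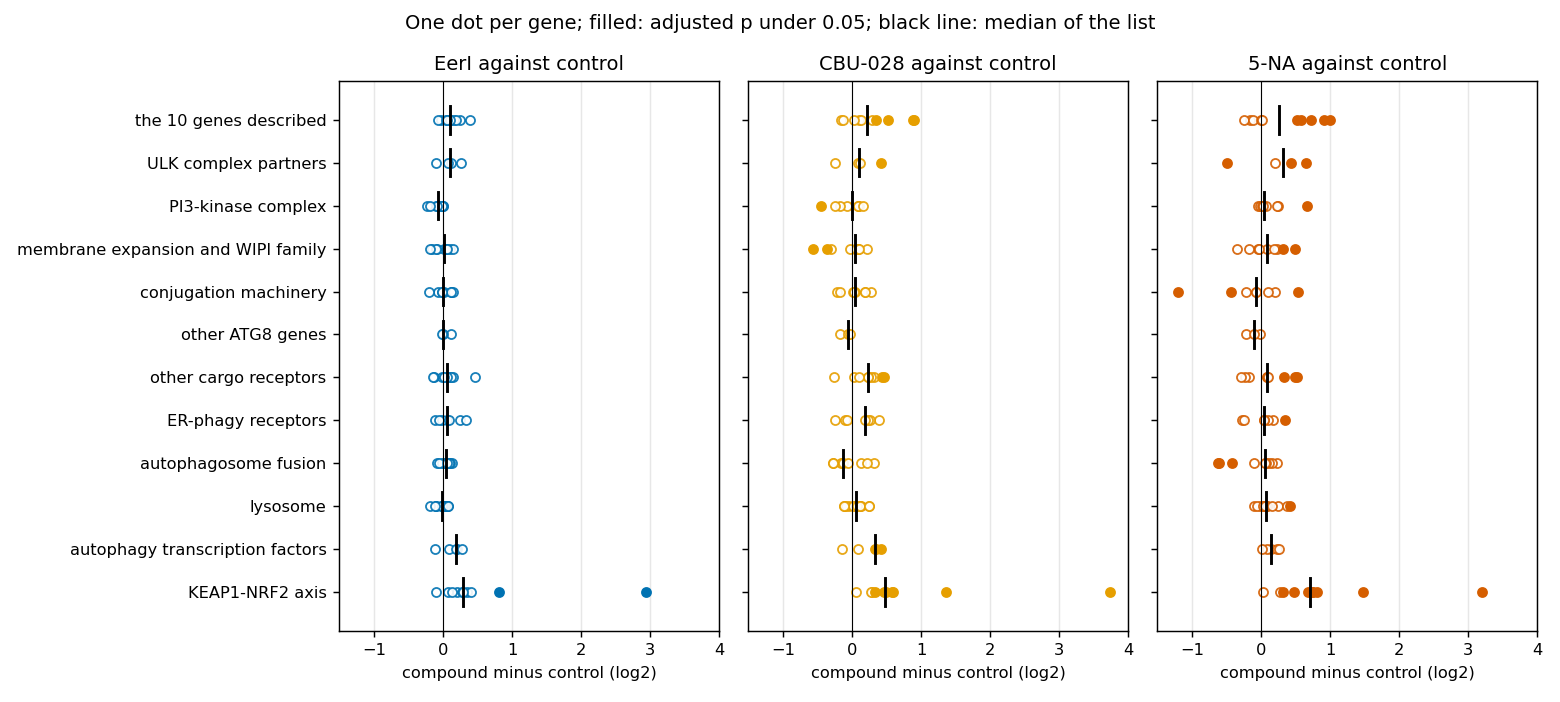
Log2 difference from control of the 10 genes described (top row), of 74 other autophagy genes and of 10 KEAP1-NRF2 genes, by list, with EerI, CBU-028 and 5-NA; black lines are list medians, and filled points have an adjusted p under 0.05. Called autophagy genes lie on both sides of 0 with 5-NA, and the KEAP1-NRF2 genes lie mostly to the right.

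The counts of the single lists are of few genes, chosen with earlier results known, and are a description. Over all genes 7.87% were called higher and 10.9% lower with 5-NA, and 5.49% and 7.1% with CBU-028. The partners of ULK1 gave 3 calls of 4 with 5-NA. ATG101 (0.65, adjusted p = 0.00107) and RB1CC1 or FIP200 (0.43, adjusted p = 0.00957), both subunits of the ULK complex, rose, and ULK2, the paralogue of ULK1, fell by 0.49 (adjusted p = 0.00349). ATG101 also rose with CBU-028 (0.41, adjusted p = 0.0118). In the PI3-kinase complex, which makes the lipid that WIPI proteins bind, 1 of 8 genes was called with each of these compounds: ATG14, which directs the complex to autophagy, rose by 0.67 with 5-NA (adjusted p = 0.000953), and PIK3R4 fell by 0.45 with CBU-028 (adjusted p = 0.0204). The other probe sets of RB1CC1 (0.15 with 5-NA) and PIK3R4 (0.01 and -0.05 with CBU-028) were not called.

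Among 9 genes of membrane expansion and the WIPI family, WIPI2 (0.32) and ZFYVE1 (0.49) rose with 5-NA, and the lipid transfer proteins ATG2A and ATG2B fell by 0.57 and 0.36 with CBU-028. The WIPI2 call was near the threshold (adjusted p = 0.0481), and of its other probe sets 1 was higher (0.89, adjusted p = 0.000586), 1 dim one lower (-0.34, adjusted p = 0.0498) and 2 not called (0.31 and 0.22). The other probe sets of ATG2B with CBU-028 were at 0.19, -0.06 and 0.07, none called. Of 8 further conjugation genes, ATG10, the E2-like enzyme for ATG12, fell by 1.20 with 5-NA (adjusted p = 0.000555), with -1.01, -0.08 and -0.55 at its other probe sets. In that list ATG4C, a protease that trims and releases ATG8 proteins, fell by 0.43, and its paralogue ATG4D rose by 0.53. None of the 3 other ATG8 genes, MAP1LC3A, MAP1LC3C and MAP1LC3B2, was called with any compound. MAP1LC3C and MAP1LC3B2 were dim, at mean log2 values of 6.36 and 5.47, and MAP1LC3A was at 7.88.

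Of 9 other cargo receptors, TAX1BP1 rose with both CBU-028 (0.43) and 5-NA (0.53), BNIP3L, a mitophagy receptor, with CBU-028 (0.47), and WDFY3 (0.50) and NCOA4 (0.33), the ferritin receptor, with 5-NA. The 3 other probe sets of WDFY3 were at 0.05, 0.09 and 0.18 and that of BNIP3L at 0.13, none called, and the others of TAX1BP1 were not called with 5-NA (0.28 and 0.19). Of 7 ER-phagy receptors 1, SEC62, rose with 5-NA (0.35). Of 9 fusion genes 3 fell with 5-NA: the SNARE proteins STX17, by 0.62, and VAMP8, by 0.43, and TECPR1, by 0.61. GLA was the 1 of 12 lysosomal genes called (0.42 with 5-NA), and of 5 transcription factors TFE3 (0.42) and FOXO3 (0.33) rose with CBU-028. The 3 other probe sets of TFE3 were not called (0.27, 0.25 and -0.02).

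SQSTM1 is a known target of NRF2, and the KEAP1-NRF2 list of 10 genes is given as a description. The part of NRF2 in the values of SQSTM1 and the other members was not tested. Of that list, chosen with earlier results known, 2 rose with EerI, 7 with CBU-028 and 8 with 5-NA, and none fell. Over all genes 0.506%, 5.49% and 7.87% were called higher. HMOX1, the heme oxygenase, rose by 2.94, 3.74 and 3.20 on the log2 scale, and GCLM, of glutathione synthesis, by 0.82, 1.36 and 1.48. NFE2L2, which encodes NRF2, rose by 0.46 with CBU-028 and 0.75 with 5-NA, and TXNRD1 by 0.59 and 0.81, both by 1 of their probe sets, with no call at the others.

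Of 2583 genes with a mean log2 value of at least 7 and group means spanning at least 0.5, those most like SQSTM1 over the 8 arrays were YPEL2 (Pearson r = 0.994), AGO3 (0.994), KLF4 (0.991), RHEBL1 (0.989) and CYLD (0.989). This is a description over 8 arrays that share their groups. KLF4, a transcription factor, differed from control by 0.37, 0.69 and 1.25 with EerI, CBU-028 and 5-NA, and YPEL2 by 0.27, 0.61 and 1.06.

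The line's markers KRT18, VIM, LIN28B and NEFM were bright, at mean log2 values from 10.1 to 13.7, whereas PAX2 was dim at 6.70. Markers of other cells such as CD79A (7.73) and HBB (7.54) lay above PAX2, and COL1A1 (9.15) lay above the line marker INA (8.88). Of the 7 line markers NEFM was lower with CBU-028 (by 0.43) and KRT8 and INA higher with 5-NA (0.29 and 0.31). Of 4 B cell and 6 other cell type markers, CD14 alone was called (1.06 with 5-NA), from a mean of 5.85 in control to 6.90. The mean of the 6 other markers was 7.28 and 7.37 on the control and 7.37 and 7.38 on the 5-NA arrays, and the part of other cells in the member values was not tested. The 3′ minus 5′ difference of ACTB was 0.0743 to 0.196 on 7 arrays and 0.363 on 5-NA replicate 2, which was below 5-NA replicate 1 for 8 of the 10 members. The 28S rRNA probe set was at 12.66 and 12.62 in control, 12.95 and 12.93 with EerI, 12.89 and 13.11 with CBU-028, and 14.02 and 14.04 with 5-NA. The 18S rRNA 3′ probe set was at 11.68 on both control arrays, 11.92 and 12.07 with EerI, 12.86 and 12.45 with CBU-028 and 12.63 and 12.83 with 5-NA. The 5′ one was, in the same order, at 12.09 and 12.10, 11.95 and 12.12, 12.85 and 12.52, and 12.35 and 12.88. The part of RNA quality in the values of the compounds was not tested. Without 5-NA replicate 2 the 5-NA differences from control were 1.11 for SQSTM1, 0.97 for MAP1LC3B, 0.84 for GABARAPL1 and 0.62 for ULK1.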

How the data were processed

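RNA of 293T cells was measured on 8 Affymetrix arrays, 2 for each of control, EerI, CBU-028 and 5-NA. The authors made the deposited log2 values by RMA (background correction, quantile normalization and a summary of the probes in each probe set), and they also name Partek. Tool versions are not given in the sources used here. RMA removes differences of total signal, so values are relative to each array, and the number of arrays limits the precision. The methods name an array of a smaller design than the HG-U133 Plus set to which the probe sets belong. An experiment number in the 5-NA titles belongs, in a list of the study, to another compound, but all other labels of these samples say 5-NA and were followed.

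Probe sets were named from GEO's platform annotation, with symbols updated through gene identifiers: 1 symbol for 41097, more than 1 for 1801 and no symbol for 11777. A gene was read by its single-symbol probe set with the highest mean, and members are also shown with each of their probe sets. Listed genes were read by that 1 probe set, and the other probe sets of a named autophagy gene are given where none of them, or an opposite one, was called. Group means were fitted over all 8 arrays with limma 3.58.1 in R 4.3.3, with 4 residual and 5.08 prior degrees of freedom, after tests on simulated data. The spread was thus shared by groups of unequal spread. A change was called at an adjusted p under 0.05 with no fold threshold, with Benjamini-Hochberg adjustment across the 54675 probe sets in each comparison. Intervals are at 95% and are not adjusted. Replicate arrays were compared first and no 2 held the same values.

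The members and lists were chosen with earlier results of these data known. All members are named, then up to 4 called genes of each list with the largest change in any compound, and the 5 genes most like SQSTM1 by Pearson r. Other genes named as members of a list without a call, and markers, are given for completeness. 1 listed marker is not reported here. Promoters came from RefSeq (GRCh38.p14). No protein sequences were used here. The alternatives tried were the unmoderated ANOVA that the methods name, raw and adjusted, folds of 1.5 and 2, floors on dim probe sets, other probe sets per gene, 2 normalizations, a replicate block, separate fits, a variance trend, array weights and each array left out. Reading a gene as changed if any probe set was, and the crossed block, were added after seeing the data. Python 3.11.15 with matplotlib 3.10.9 drew the figures.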

Additional observations from a re-analysis of the deposited data

How the results depend on the processing

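No call of a member changed direction under the alternatives that gave each gene a single difference. Reading a gene as changed if any probe set was gives no direction, so it could not show a reversal. Under that reading ATG5 with 5-NA against control counted only through 202512_s_at, which was lower. The number of member genes called ran from 0 to 0 for EerI against control, 2 to 5 for CBU-028 against control, 4 to 5 for 5-NA against control, 0 to 2 for CBU-028 against EerI, 2 to 4 for 5-NA against EerI and 2 to 4 for 5-NA against CBU-028 when each array was left out. The arrays behind lost calls are named in the results, and where a group then had 1 array its spread was assumed to be like that of the others. With 5-NA, SQSTM1, MAP1LC3B, GABARAPL1 and ULK1 passed against control whichever of the 8 arrays was left out, as did GABARAPL1 and ATG12 with CBU-028. The methods' ANOVA gave with unadjusted p 2, 6 and 7 genes for EerI, CBU-028 and 5-NA against control, 5 for CBU-028 against EerI, 6 for 5-NA against EerI and 5 for 5-NA against CBU-028, and with adjusted p 1 for CBU-028 and 3 for 5-NA against control and 0 for CBU-028 against EerI, with the lost calls named in the results. At 1.5-fold the counts were 2 for CBU-028 against control, 3 for 5-NA against control, 2 for 5-NA against EerI and 0 for 5-NA against CBU-028. At 2-fold they were 0 for CBU-028 and 1 for 5-NA against control, and 0 in each comparison of 2 compounds. CBU-028 against EerI had 0 calls in a fit of those groups alone and 2 with a trend in the prior variance, and 5-NA against CBU-028 had 5 with a floor at a log2 value of 7, where fewer probe sets were tested. For the other changes the cause was not tested.

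Differences that changed sign were all near 0 and not called. With renewed quantile normalization GABARAP with EerI was at 0.0019 and WIPI1 with 5-NA at -0.0069. With median centring WIPI1 with 5-NA was at -0.0096, ATG5 with 5-NA at -0.00199 and NBR1 for CBU-028 against EerI at 0.0017. As means of probe sets ATG5 with EerI was at -0.0415, NBR1 with 5-NA at 0.0103, WIPI1 with 5-NA at -0.0021, ATG5 with 5-NA at -0.11 and NBR1 for CBU-028 against EerI at 0.083. With an array left out WIPI1 with EerI ran from -0.0381 to 0.137, ULK1 with CBU-028 from -0.0347 to 0.0941, WIPI1 with 5-NA from -0.0844 to 0.0905 and ATG5 with 5-NA from -0.0435 to 0.0648. Between compounds NBR1 for CBU-028 against EerI ran from -0.0476 to 0.0245, WIPI1 for 5-NA against EerI from -0.106 to 0.0134, ATG5 for 5-NA against EerI from -0.102 to 0.00575, and for 5-NA against CBU-028 GABARAP from -0.18 to 0.0074 and GABARAPL2 from -0.0385 to 0.0612.

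Deviations of same-numbered arrays correlated between -0.146 and 0.146, so no strong effect shared by a replicate number was seen. Whether same-numbered samples were handled together cannot be told from this. The replicate block left the counts at 0, 4, 5, 1, 4 and 3 in the 6 comparisons, and with the EerI numbers crossed EerI against control and CBU-028 against EerI had 0 and 1 calls. Array weights changed no call, but both arrays of a group had the same weight, so this could not set apart a poor array. Leaving out probe sets ending in _x_at also changed no call, and no member probe set has that ending, so no member difference could change. With any probe set of a gene the counts were 0, 5, 7, 1, 5 and 3.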
